A study of Mus musculus with 6 samples.

Results

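The 10 genes described here encode proteases that cut cartilage and bone matrix, and the inhibitors that block them. They are the gelatinases *Mmp2* and *Mmp9*, the collagenase *Mmp13*, the membrane-anchored protease *Mmp14*, the aggrecanases *Adamts1*, *Adamts4* and *Adamts5*, and the tissue inhibitors of metalloproteinases *Timp1*, *Timp2* and *Timp3*. They were chosen by name, and each matched 1 of the 47729 Ensembl identifiers in the deposited table through its GRCm38 annotation symbol. RNAseq was done on epiphyses of the proximal tibia taken at 14 days of age, pieces that held articular cartilage, the secondary ossification center, the growth plate and metaphyseal bone with marrow, from 3 mice of the Longshanks 1 line (LS1) and 3 mice of the Control line (ICR). LS1 mice were selectively bred for long tibiae relative to body mass, and Control mice were bred at random from the same outbred background. Neither group carried a transgene or received a treatment, each library held the epiphyses of both tibiae of 1 mouse, and the mice came from different families. Each group is 1 breeding line, so selection and drift cannot be told apart in these comparisons.

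Growth plate cartilage lengthens a bone by making matrix at one side and losing it at the other. Matrix metalloproteinases (MMPs) cut collagens at the front where hypertrophic cartilage is replaced by bone, with MMP13 made by hypertrophic chondrocytes and osteoblasts, and MMP9 made largely by osteoclasts and other marrow-derived cells. MMP14 sits on the cell surface and activates MMP2 and MMP13. ADAMTS proteases cut aggrecan, the main proteoglycan of cartilage. TIMPs bind the active site of these enzymes, and TIMP3 differs from the other members in being held in the matrix and in blocking aggrecanases as well as MMPs.

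The promoter of *Mmp13* is shown because it is the most abundant of the 10 genes, that of *Timp3* because it is the gene whose groups did not overlap, and that of *Timp1* because its level followed that of *Mmp13* across the libraries. The RefSeq table (GRCm38.p6) matched 6 of the 10 genes (*Mmp13*, *Mmp14*, *Adamts1*, *Timp1*, *Timp2* and *Timp3*). The 250 bases before each RefSeq start were searched on both strands for TGAGTCA or TGACTCA, the site of AP-1 factors, and for TGTGGTT or AACCACA, the site of RUNX factors, words that do not overlap each other. The AP-1 words were present in 4.46% and the RUNX words in 4.40% of the 32851 windows of the same length. *Mmp13* held 1 of each, and the other 5 matched genes held neither in this window. For *Timp2* the window lay wholly inside the annotated gene, so it does not describe the sequence before that gene. Capitals mark these words. The windows are chr9:7272264-7272513 (plus strand), chrX:20869916-20870165 (plus strand) and chr10:86300162-86300371 (plus strand), the last being cut to 210 bases where the annotated gene begins.
Mmp13: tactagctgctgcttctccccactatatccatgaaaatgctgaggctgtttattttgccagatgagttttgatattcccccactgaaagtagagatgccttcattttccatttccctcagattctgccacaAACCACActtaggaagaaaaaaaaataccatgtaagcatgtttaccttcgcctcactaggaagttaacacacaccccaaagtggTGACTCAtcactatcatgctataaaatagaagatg
Timp1: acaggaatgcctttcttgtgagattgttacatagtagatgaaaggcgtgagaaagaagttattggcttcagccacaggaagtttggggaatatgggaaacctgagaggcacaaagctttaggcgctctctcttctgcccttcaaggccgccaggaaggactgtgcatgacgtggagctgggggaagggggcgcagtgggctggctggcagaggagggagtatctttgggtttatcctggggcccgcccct
Timp3: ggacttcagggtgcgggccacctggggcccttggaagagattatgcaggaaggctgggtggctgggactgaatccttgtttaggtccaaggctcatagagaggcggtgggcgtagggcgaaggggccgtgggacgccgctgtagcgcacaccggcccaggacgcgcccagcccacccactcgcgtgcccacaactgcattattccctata
In *Mmp13* the AP-1 word lay 35 to 29 bases and the RUNX word 119 to 113 bases before the start. The 250-base window of *Mmp13* held 40.4% G and C and 1 CpG, that of *Timp1* 54.4% and 6, and that of *Timp3* 65.6% and 18, where the medians over all windows were 52.4% and 6. A match of letters is a description of the sequence and does not show binding in these samples.

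The values are read counts divided by 1 size factor per library, called normalized counts. The libraries held 68803249 to 76581954 recovered reads in Control and 82227711 to 88745366 in LS1, so each LS1 library was deeper than each Control library. Among the 10 genes the lowest library still had 1311 reads (*Adamts4*), so counting error is small beside the spread between mice. Along the first principal component LS1 replicate 3 lay at -4.29, between the Control libraries (-41.5 to -22.1) and the other LS1 libraries (43.7 and 50.1). Y-linked transcripts were high in Control replicate 3, LS1 replicate 1 and LS1 replicate 3, so the groups were not balanced for sex. Cartilage, bone and marrow transcripts were all present, with Control means of 177817 normalized counts for *Acan*, 2181390 for *Col1a1* and 33939 for *Ltf*.

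Levels of different genes were compared per kilobase of merged exons, as means over the 3 mice of a group. *Mmp13* had 195417 ± 61917 normalized counts per kb in Control (SD, n = 3) and 147544 ± 20800 in LS1 (SD, n = 3). Averaged over the 6 libraries it ranked 8 among 14970 protein-coding genes tested, and *Mmp9* ranked 31. *Mmp9* had 45798 ± 7122 normalized counts per kb in Control and 47951 ± 7277 in LS1 (SD, n = 3 each). *Timp1* followed with 16956 ± 4490 and 14961 ± 3054, and *Mmp2* with 9924 ± 602 and 9862 ± 194 normalized counts per kb (SD, n = 3 each). Each of these 4 genes was above the next in every library. *Timp2* (6522 to 8047 normalized counts per kb over the 6 libraries) and *Mmp14* (5651 to 7753) came next, and their ranges overlapped. The remaining members were far lower. *Timp3* lay at 510 to 1033 normalized counts per kb and *Adamts1* at 467 to 568, ranges that overlapped, and *Adamts4* (275 to 396) and *Adamts5* (201 to 290) overlapped in the same way. Collagenase and gelatinase transcripts thus stood well above aggrecanase transcripts in all 6 libraries.

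**Figure D1:**
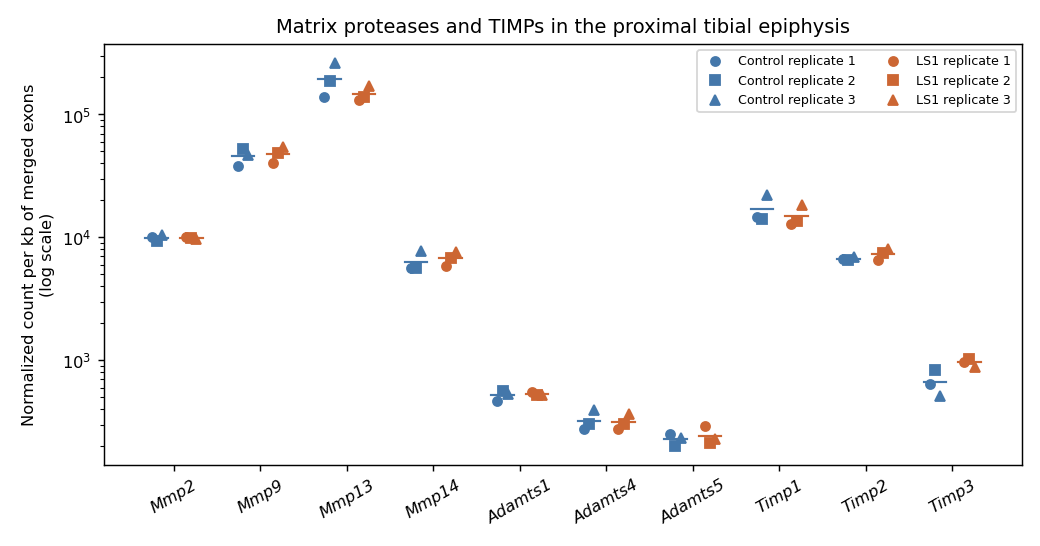
Normalized count per kilobase of merged exons on a log axis for the 10 genes, with Control in blue, LS1 in orange, 1 symbol per mouse and a line at each group mean (n = 3). The MMPs, *Timp1* and *Timp2* lie at 5651 or above and the ADAMTS genes at 568 or below, and the groups are apart for *Timp3* but overlap for the other 9 genes.

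The comparison of LS1 with Control asks whether the genes that remove matrix differ in transcript level between lines that differ in tibia length. Of the 10 members, all of which had a mean of at least 20 reads, 0 had an adjusted p under 0.05 from limma, where 0.0725% of the 19308 genes tested passed (0.0104% higher and 0.0622% lower in LS1). The count was also 0 with limma-voom, with edgeR, which called 0.0363% of all genes, and with DESeq2, which called 2.38%. At an unadjusted p under 0.05 the count was 1 of 10 with limma and with each of these tools, and the gene was *Timp3* each time. For limma this is to be read against 12.9% of all genes (7.08% higher and 5.86% lower). The groups did not overlap in 1 of 10 members, against 19.2% of all genes tested (10.3% with LS1 above and 8.94% with LS1 below). Neither share is a result about the members. The log2 fold change (LS1 minus Control) was above 0 in 6 members and below 0 in 4, with a median of 0.05. Over all genes tested 50.7% were above 0 and the median was 0.0054.

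**Figure D2:**
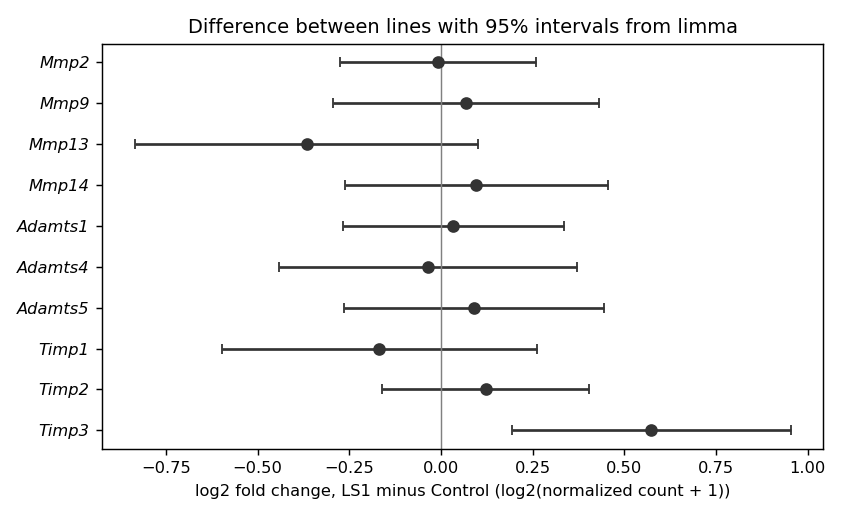
Log2 fold change between LS1 and Control on the log2(normalized count + 1) scale for each gene, with the 95% interval from limma (n = 3 mice per group). The intervals run from -0.83, the lower bound of *Mmp13*, to 0.95, the upper bound of *Timp3*, and only that of *Timp3* does not include 0.

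*Mmp13* (ENSMUSG00000050578, chromosome 9 from 7272514 to 7283331) encodes the collagenase that cuts collagen II in hypertrophic cartilage. The 3 Control mice had 371430, 496274 and 699341 normalized counts, and the 3 LS1 mice 352249, 373509 and 457401. Control replicates 2 and 3 lay above every LS1 library, and LS1 replicate 1 lay below every Control library. Control replicate 1 lay between LS1 replicates 1 and 2. The log2 fold change was -0.37 (standard error, SE, 0.21, limma adjusted p = 0.494), with a 95% interval from -0.83 to 0.10. Without Control replicate 3 it was -0.13, and without Control replicate 1 it was -0.59, so the size of the difference depended on single Control mice. In bulk tissue, fewer cells of a type and less RNA per cell cannot be told apart.

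Collagen X (*Col10a1*), the collagen of hypertrophic cartilage, gives a second measure of these cells. It had 315844, 372943 and 340963 normalized counts in Control and 533299, 504434 and 533263 in LS1, so that the groups did not overlap. It had a log2 fold change of 0.61 (SE 0.13, limma adjusted p = 0.158), and its adjusted p from DESeq2 was 0.00367. The study had picked *Col10a1* on these same libraries, so this is no independent evidence. Its quantitative PCR on growth plates alone, from other LS1 and Control mice, gave no significant difference for *Col10a1* or *Mmp13*. The ratio of *Mmp13* to *Col10a1* per kb was 1.38, 1.56 and 2.40 in the Control mice and 0.773, 0.867 and 1.00 in the LS1 mice. Each LS1 ratio was below each Control ratio. The ratio was chosen after the values of both genes were seen and is given without a test. Of the 8 hypertrophic chondrocyte markers listed, 7 had a log2 fold change above 0 (median 0.39) and 0 passed limma. Their summed normalized counts were 559400 to 647600 in Control and 781500 to 922700 in LS1, and 0 markers were without reads. Most of these counts came from *Col10a1* itself, with means of 343250 in Control and 523666 in LS1. *Ibsp*, which is also on the osteoblast list, supplied most of the rest, and its groups overlapped. In 4 of the 8 markers, *Col10a1*, *Panx3*, *Mef2c* and *Runx2*, each LS1 library was above each Control library, against 10.3% of all genes tested. The study had picked *Runx2* as well as *Col10a1* on these libraries, and the list was chosen with earlier results known. The part of these markers in the level of *Mmp13* was not tested. Among 8 osteoblast markers, which could supply *Mmp13* too, the median was 0.08, with 5 above 0 and 3 below, and 0 passed limma. In 2 of them, *Col1a1* (-0.19) and *Bglap* (-1.10), each LS1 library was below each Control library, against 8.94% of all genes tested. Their sums were 2702000 to 3316000 normalized counts in Control and 2487000 to 2947000 in LS1, most of them from *Col1a1*.

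**Figure D3:**
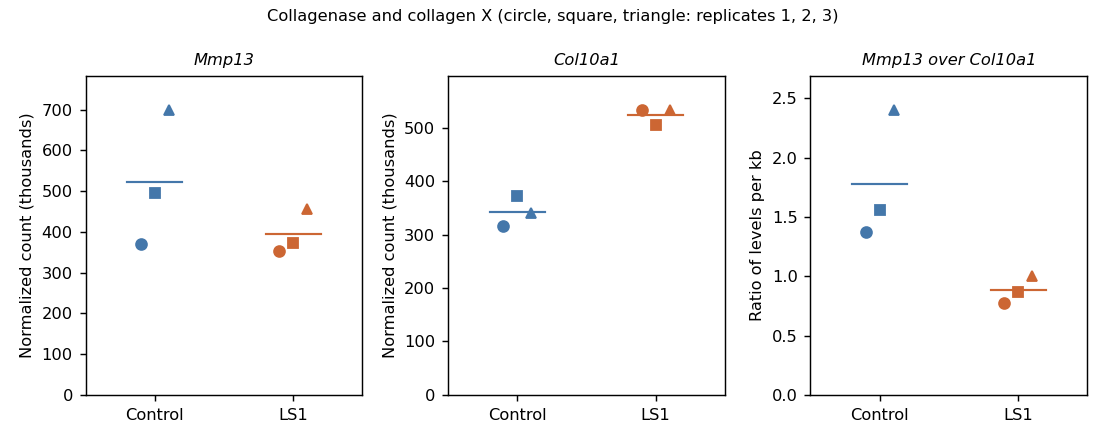
Normalized counts (axis divided by 1000) for *Mmp13* and *Col10a1*, and the ratio of their levels per kb, by group with 1 symbol per mouse and a line at the mean (n = 3). *Mmp13* overlaps between the groups, *Col10a1* does not, and the ratio is at most 1.00 in LS1 and at least 1.38 in Control.

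*Mmp9* (ENSMUSG00000017737, chromosome 2 from 164940780 to 164955850) encodes the gelatinase of osteoclasts and granulocytes. Control mice had 134826, 184552 and 166856 normalized counts, and LS1 mice 142431, 173058 and 193609. The lowest library of each group and the highest of each were close together, and the groups overlapped throughout. The log2 fold change was 0.07 (SE 0.17, limma adjusted p = 0.896), with a 95% interval from -0.30 to 0.43. Markers were listed for 3 kinds of cell that make this enzyme. Of 10 osteoclast markers 5 were above 0 and 5 below, with a median log2 fold change of 0.01, and 0 passed limma. Their summed normalized counts ran from 317000 to 429800 in Control and from 262600 to 445200 in LS1. Of 12 neutrophil markers 9 were above 0 (median 0.19) and 0 passed limma, with sums of 256700 to 356700 in Control and 328500 to 381700 in LS1. At an unadjusted p under 0.05 from limma 2 of the neutrophil markers were higher, *Ltf* (0.40) and *Elane* (0.42), against 7.08% of all genes tested. Their adjusted p from DESeq2 was 0.191 and 0.260. The 3 below 0 were *Mpo* (-0.03), *Cebpe* (-0.18) and *Retnlg* (-0.08). Of 10 macrophage markers 9 were above 0 (median 0.38) and 0 passed limma, with sums of 36460 to 51990 in Control and 49070 to 68830 in LS1. By the same unadjusted threshold 2 of them were higher, *C1qb* (0.59) and *Mpeg1* (1.10), and *Cd163* was the 1 below 0 (-0.44). All markers of the 3 lists had reads, and their part in the level of *Mmp9* was not tested. The ratio of *Mmp9* to *Ctsk*, the collagen-cutting cathepsin of osteoclasts, was 0.343, 0.506 and 0.323 in Control and 0.411, 0.407 and 0.365 in LS1 on the scale of levels per kb. The LS1 ratios lay inside the Control range.

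*Mmp13* and *Mmp9* together made up most of the summed protease level. Of the level of the 7 proteases per kb, *Mmp13* took 71.7%, 73.1% and 79.7% in the Control mice and 69.7%, 67.7% and 70.1% in the LS1 mice. *Mmp9* took 19.7%, 20.5% and 14.4% in Control and 21.3%, 23.7% and 22.4% in LS1. The LS1 shares of *Mmp13* were all below, and those of *Mmp9* all above, the Control shares. These shares are parts of 1 total and do not show which gene differed.

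*Mmp2* (ENSMUSG00000031740, chromosome 8 from 92827291 to 92853420) encodes the gelatinase made by many mesenchymal cells. Control mice had 33689, 31317 and 35353 normalized counts, and LS1 mice 33914, 33211 and 32607. Of the 10 genes its mean difference was the nearest to 0, with a log2 fold change of -0.01 (SE 0.12, limma adjusted p = 0.988) and an interval from -0.27 to 0.26. Its activator *Mmp14* (ENSMUSG00000000957, chromosome 14 from 54431612 to 54445364) had 33681, 33803 and 46206 normalized counts in Control and 34671, 40889 and 45360 in LS1. The high library of Control lay above all those of LS1 and the low ones below them. The log2 fold change of *Mmp14* was 0.10 (SE 0.16, limma adjusted p = 0.839), with an interval from -0.26 to 0.45.

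The aggrecanases were the least abundant members. *Adamts1* (ENSMUSG00000022893, chromosome 16 from 85793827 to 85803113) had 2474, 3010 and 2822 normalized counts in Control and 2958, 2771 and 2750 in LS1. All 3 LS1 libraries lay within the Control range. Its neighbour *Adamts5* (ENSMUSG00000022894, chromosome 16 from 85856173 to 85901828), the main aggrecanase of mouse cartilage, had 2717, 2173 and 2521 normalized counts in Control and 3132, 2296 and 2494 in LS1. LS1 replicate 1 was the highest library and the rest were mixed. *Adamts4* (ENSMUSG00000006403, chromosome 1 from 171250421 to 171260637), an aggrecanase that inflammatory signals can induce, had 1323, 1453 and 1904 normalized counts in Control and 1328, 1456 and 1757 in LS1. Both groups ran over nearly the same range, with replicate 3 the highest in each. The log2 fold changes were 0.03 for *Adamts1*, 0.09 for *Adamts5* and -0.04 for *Adamts4*, with standard errors of 0.14, 0.16 and 0.18 and adjusted p-values of 0.942, 0.853 and 0.955 from limma. The interval of *Adamts4* was the widest of the 3, from -0.44 to 0.37.

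*Timp3* (ENSMUSG00000020044, chromosome 10 from 86300372 to 86349506) was the only member whose groups did not overlap. Control mice had 5217, 6783 and 4152 normalized counts, and LS1 mice 7936, 8416 and 7247. The lowest LS1 mouse was above the highest Control mouse, and Control replicate 3 was the lowest of all. The means were 5384 ± 1323 in Control and 7867 ± 587 in LS1 (SD, n = 3 each), a log2 fold change of 0.57 (standard error 0.17, 95% interval from 0.19 to 0.95). The adjusted p was 0.250 from limma and 0.119 from DESeq2, so the difference did not pass in the fit over all genes. An exact permutation test gave a two-sided p of 0.1, the smallest that 3 mice against 3 allow. Leaving out single libraries gave values from 0.40 (without Control replicate 3) to 0.75 (without Control replicate 2). Exons of *Syn3* on the opposite strand overlap 21.3% of the exonic bases of *Timp3*, and *Syn3* itself had a mean of 274 normalized counts. Whether the counting used strand is not given in the sources used here. Markers of fibrous and joint tissue gave a mixed picture beside *Timp3*. Of 8 such markers 7 had a log2 fold change above 0 (median 0.27) and 0 passed limma, and their summed normalized counts, most of them from *Fmod* and *Postn*, were 90930 to 99980 in Control and 106900 to 130000 in LS1. These sums did not overlap, but *Fmod* and *Postn* each did, and *Tnmd* was the 1 marker of the 8 that did not. Over all genes tested, 10.3% had each LS1 library above each Control library. By the list median, relative to the Control mean on the log2 scale, LS1 replicate 3 (0.10) lay below Control replicate 3 (0.16), so the groups overlapped. None of these markers was without reads, and their part in the level of *Timp3* was not tested.

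The more abundant inhibitors overlapped between the lines. *Timp1* (ENSMUSG00000001131, chromosome X from 20870166 to 20874735) had 12898, 12616 and 19658 normalized counts in Control and 11378, 12090 and 16389 in LS1. Replicate 3 was the highest mouse of each group. *Timp2* (ENSMUSG00000017466, chromosome 11 from 118301069 to 118355740), which also helps MMP14 to activate MMP2, had 26009, 25411 and 27236 normalized counts in Control and 25640, 28847 and 31352 in LS1. LS1 replicate 1 lay within the Control range and the other LS1 libraries above it. The log2 fold changes were -0.17 for *Timp1* (SE 0.20, limma adjusted p = 0.749) and 0.12 for *Timp2* (SE 0.13, limma adjusted p = 0.718). As a balance of enzyme and inhibitor transcripts, the summed level of the 7 proteases per kb was 10.6 ± 1.52 times that of the 3 TIMPs in Control and 9.18 ± 0.237 times in LS1 (SD, n = 3 each), and the LS1 ratios lay inside the Control range. *Timp3* made up 1.72% to 3.86% of the summed TIMP level in Control and 3.25% to 4.78% in LS1.

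Several members shared their highest library. *Mmp13*, *Mmp14*, *Adamts4*, *Timp1* and *Timp2* were each highest in replicate 3 of their group, in Control and in LS1. This was not particular to the members, since *Ctsk*, *Acp5*, *Alpl*, *Ibsp* and *Comp* among the listed genes did the same. The share over all genes was not counted. Over the 6 libraries, which share size factors with all other genes, Pearson's r on the log2 scale was 0.95 for *Adamts4* and *Timp1*, 0.91 for *Adamts4* and *Mmp14*, and 0.86 for *Mmp13* and *Timp1*. *Timp3* had an r of -0.70 with both *Mmp13* and *Timp1*. Among 9670 genes with a mean of at least 1000 normalized counts, those most like *Mmp13* over the 6 libraries were *Mrpl36*, *Bscl2* and *Aven* (r of 0.995, 0.990 and 0.989). Those most like *Mmp9* were *Faap20*, *Rab11fip5* and *Gm9761* (r of 0.990, 0.970 and 0.970). These are descriptions of a search over many genes in 6 libraries, with no test.

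Other genes that act with these proteases, and the markers named above, gave 132 listed genes, of which 123 were tested. Of these, 0 passed limma and 0 passed edgeR, and at an unadjusted p under 0.05 from limma 19 were higher and 2 lower in LS1, where 7.08% of all genes tested were higher and 5.86% lower. Without LS1 replicate 3 limma called 7 of them (*A2m*, *Matn3*, *Adgre1*, *C1qb*, *Mpeg1*, *Prg4* and *Tnmd*), where it called 1.68% of all genes. Of the single omissions this one called the most genes, and it is the only one given for the listed genes. DESeq2 called 8 higher (*Mmp3*, *Mmp10*, *A2m*, *Matn3*, *Col10a1*, *Runx2*, *Mpeg1* and *Tnmd*) and 1 lower (*Bglap*), where it called 1.44% of all genes higher and 0.943% lower. *Matn3*, *Col10a1*, *Runx2* and *Mpeg1* had been picked by the study on these libraries. In its quantitative PCR on growth plates alone none of these 4 differed significantly between LS1 and Control. For *Bglap* the study's assay list names *Bglap3*, which was significantly lower in LS1, with replicate wells that varied beyond the study's limit.

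Of 19 other MMP genes, 13 were tested, 9 with a log2 fold change above 0 (median 0.11). The stromelysins *Mmp3* and *Mmp10*, which cut proteoglycans and activate collagenases, had the smallest p-values. *Mmp10* had 279 ± 97.2 normalized counts in Control and 595 ± 66.1 in LS1, a log2 fold change of 1.15 (SD, n = 3 each, SE 0.28, limma adjusted p = 0.187, DESeq2 adjusted p = 0.00808). *Mmp3* had 160, 171 and 177 normalized counts in Control and 386, 334 and 256 in LS1, a log2 fold change of 0.92 (SE 0.24, limma adjusted p = 0.213, DESeq2 adjusted p = 0.0169). In both genes the groups did not overlap. Both lie in a cluster of 10 MMP genes with *Mmp13* on chromosome 9 (7272514 to 7699585), of which 6 were tested. Along the cluster the log2 fold changes were -0.37 for *Mmp13*, 0.69 for *Mmp12*, 0.92 for *Mmp3*, 1.15 for *Mmp10*, 0.11 for the neutrophil collagenase *Mmp8* and -0.40 for *Mmp27*. *Mmp17*, a membrane-anchored MMP, lay lower in each LS1 library, with 886 ± 237 normalized counts in Control and 487 ± 205 in LS1 (SD, n = 3 each, adjusted p = 0.293 from limma).

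Of 16 other ADAMTS genes, 15 were tested, 9 of them above 0, with a median log2 fold change of 0.10. The smallest adjusted p was 0.377 from limma, for the scarce *Adamts8* (19.2 ± 5.23 normalized counts in Control and 39.2 ± 11.6 in LS1, SD, n = 3 each). The procollagen-processing enzyme *Adamts2* had a log2 fold change of -0.31 and *Adamts17* one of 0.32, with adjusted p-values of 0.478 and 0.518 from limma.

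Among the other inhibitors, *A2m*, which encodes the broad protease trap alpha-2-macroglobulin, had 4263, 3420 and 2859 normalized counts in Control and 6319, 7242 and 5331 in LS1. The groups did not overlap. Its log2 fold change was 0.85 (SE 0.17, limma adjusted p = 0.137, DESeq2 adjusted p = 0.00310), and without LS1 replicate 3 it passed limma (0.96, adjusted p = 0.0192). *Reck*, a membrane-bound MMP inhibitor, and *Timp4* had log2 fold changes of 0.20 and 0.28 (limma adjusted p = 0.635 and 0.747).

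In the plasminogen system, which activates several MMPs, 6 of 7 genes were tested and 5 were above 0 (median 0.13). *Plau*, the urokinase activator, had 1661 ± 387 normalized counts in Control and 2571 ± 402 in LS1 (SD, n = 3 each), a log2 fold change of 0.64 (SE 0.19, limma adjusted p = 0.249). Its inhibitor *Serpine2* had a log2 fold change of 0.22 (limma adjusted p = 0.554). The 4 proprotein convertases, which remove the propeptides of MMP14 and ADAMTS enzymes, ran from -0.04 to 0.12 with a smallest adjusted p of 0.752 from limma. Of 9 cathepsin and cystatin genes 8 were tested, 6 of them above 0 (median 0.15). The cathepsin inhibitor *Cstb*, with a log2 fold change of 0.40, had the smallest adjusted p (0.280 from limma), followed by the lysosomal cathepsins *Ctss* (0.88) and *Ctsh* (0.23). Among endocytic receptors that clear proteases and collagen fragments, *Mrc2* had a log2 fold change of -0.23 and *Lrp1* one of 0.08, with adjusted p-values of 0.504 and 0.836 from limma.

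The substrates of these enzymes were mostly above 0. Of 14 matrix genes, 11 had a log2 fold change above 0, with a median of 0.23. *Acan*, the substrate of the aggrecanases, had 177817 ± 16937 normalized counts in Control and 251077 ± 21692 in LS1 (SD, n = 3 each), a log2 fold change of 0.50 (SE 0.14, limma adjusted p = 0.229). *Matn3*, a matrilin of cartilage, had a log2 fold change of 0.75 (adjusted p = 0.184 from limma). Neither these nor any other substrate passed limma.

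**Figure D4:**
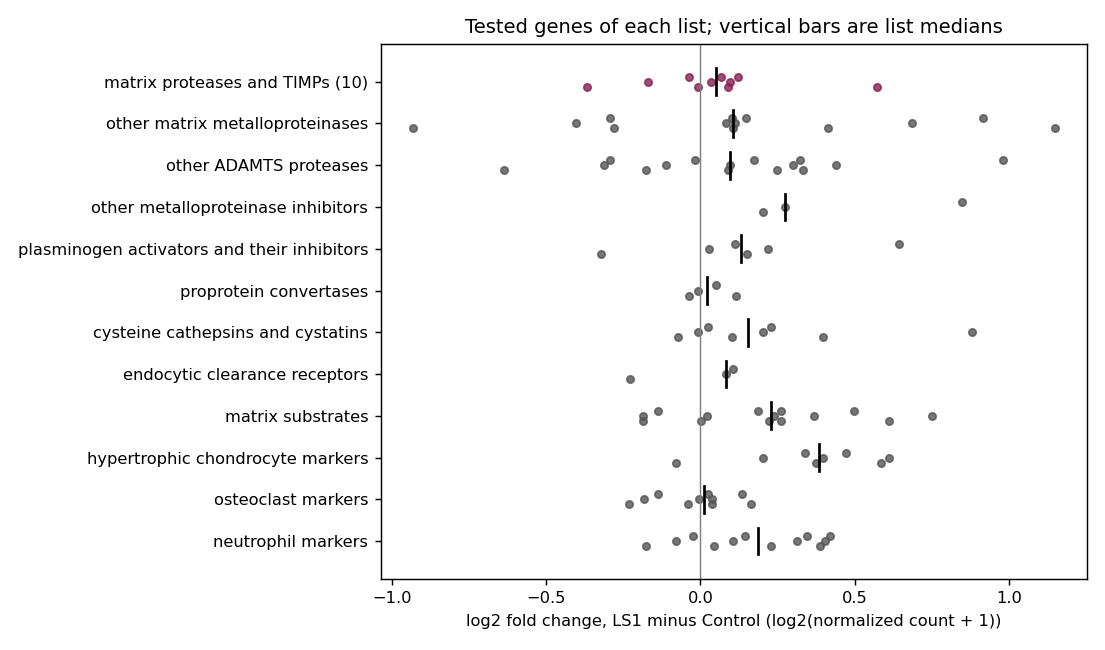
Log2 fold change (LS1 minus Control) of each tested gene, 1 point per gene, for the 10 proteases and TIMPs, the other protease and inhibitor lists, the substrates and 3 marker lists, with a bar at each list median. The median is 0.05 for the 10 members, 0.23 for the substrates and 0.39 for the hypertrophic chondrocyte markers.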

How the data were processed

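RNAseq libraries of 3 Control and 3 LS1 mice were compared. Per the labels and the methods of the study, the authors used HISAT2 2.0.2 for mapping (GRCm38) and featureCounts 1.4.6 for counting. They used DESeq2 for size factors and to test LS1 against Control, so the main test here, limma, is not the test of the study. The deposited values are a signal per gene, the read count divided by 1 size factor per library, and 0 columns were left unused. Reads were recovered by dividing by the value of 1 read (0.870 to 1.11), and 100% of values were whole within 0.001 reads. In Control replicate 1 this value was too near 1 to tell recovered reads from rounded ones. A mean of 20 or more reads was required (19308 genes), and log2(value + 1) was tested with limma 3.58.1 (R 4.3.3, mean-variance trend, robust moderation), with Benjamini-Hochberg adjustment over all genes tested and a threshold of 0.05. A fold change on this scale understates that of low genes. Gene names, coordinates and exon lengths came from GENCODE M21 on GRCm38 (98.9% of identifiers matched). DESeq2 1.42.0, edgeR 4.0.16, limma-voom, TMM normalization, pseudocounts of 0.5 and 5, no filter or one of 100 reads, a Y-linked covariate, a replicate block and leaving out single libraries were the alternatives. Scripts were tested on simulated data. The members, and the lists of other proteases, inhibitors, substrates and cell type markers, were chosen with earlier results of these data known. Named were all members and, from each list, genes passing limma and the 3 with the smallest p. Some results that this rule names are not reported here. Other genes were named after their values were seen. Libraries of a group came from separate mice.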

Additional observations from a re-analysis of the deposited data

How the results depend on the processing

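Over 17 alternatives, 0 members were called under each. Of the 170 member values, 157 kept their direction and 13 changed sign, all in genes whose main value was within their standard error of 0. These were *Mmp9* at -0.061 and *Adamts1* at -0.055 and *Mmp14* at -0.000018 (DESeq2 without Control replicate 1, chosen after seeing the data), *Mmp2* at 0.0033 (TMM normalization), *Mmp9* at -0.060 and *Adamts1* at -0.045 (without Control replicate 1), *Mmp2* at 0.033, *Adamts4* at 0.12 and *Timp1* at 0.040 (without Control replicate 3), *Adamts4* at 0.054 and *Adamts5* at -0.040 (without LS1 replicate 1), and *Mmp2* at 0.0064 and *Mmp9* at -0.034 (without LS1 replicate 3). With single libraries left out, *Mmp2* ran from -0.054 to 0.033, *Mmp9* from -0.060 to 0.19, *Adamts1* from -0.045 to 0.096, *Adamts4* from -0.15 to 0.12, *Adamts5* from -0.040 to 0.18 and *Timp1* from -0.33 to 0.040. *Mmp13*, *Timp2* and *Timp3* kept their sign under each alternative. The adjusted p of *Timp3* ran from 0.106 to 0.520 and that of *Mmp13* from 0.164 to 0.886.

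The number of all genes called moved from 14 to 459 with DESeq2, 242 with DESeq2 without Control replicate 1, 7 with edgeR, 8 with limma-voom, 9 with a mean of at least 100 reads and 45 with no filter. With each library left out it ran from 5 (without Control replicate 2) to 324 (without LS1 replicate 3), with 9 without Control replicate 1 and 46 without LS1 replicate 1. The cause was not tested. With Y-linked expression as a covariate *Timp3* had a log2 fold change of 0.67 (adjusted p = 0.205 from limma) and *Mmp13* one of -0.49 (adjusted p = 0.390 from limma).

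The replicate block called 12 genes and 0 members. Deviations of same-numbered libraries correlated at 0.05, 0.02 and 0.22 for replicates 1, 2 and 3, and not every library correlated best with its own number. With 3 libraries per group these values cannot settle whether the numbers pair the mice. With the block the adjusted p of *Mmp13* from limma was 0.208.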

Other observations

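The list median of the macrophage markers differed among the LS1 mice, but single markers did not all follow it. Among these mice *Mpeg1* and *C1qb* were highest in replicate 2, while *Mrc1* was lowest there and *Csf1r* was highest in replicate 3. Of 10 markers, 9 had a log2 fold change above 0 (median 0.38) and 0 passed limma. Relative to the Control mean, the log2 median of the list was 0.33, 0.82 and 0.12 for replicates 1, 2 and 3 of LS1, the last within the Control range of -0.08 to 0.17. *Mpeg1*, a pore-forming protein of macrophages that the study picked on these libraries, had a log2 fold change of 1.10 (adjusted p = 0.285 from limma, and 0.0106 without LS1 replicate 3). The members made in part by macrophages, *Mmp9* and *Mmp14*, had log2 fold changes of 0.07 and 0.10.

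Endothelial markers, which follow the vessels that invade the cartilage, had a median log2 fold change of 0.07 over 7 genes, with 0 past limma. *Tek*, the receptor of angiopoietins, had 2634 ± 69.2 normalized counts in Control and 3462 ± 482 in LS1 (SD, n = 3 each), with no overlap of the groups (adjusted p = 0.311 from limma). Among fibrous and joint tissue markers, the tendon gene *Tnmd* had a log2 fold change of 1.24 (adjusted p = 0.198 from limma and 0.00103 from DESeq2), and the lubricating protein *Prg4* of articular cartilage one of 0.75 (adjusted p = 0.390 from limma). Without LS1 replicate 3, the omission that called the most genes, both passed limma, at 1.48 (adjusted p = 0.0253) and 1.13 (adjusted p = 0.00724). In that library *Prg4* had 3072 normalized counts, within the Control range of 2755 to 3472.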
